A study of Oryza sativa with 19 samples.

Results

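Callus and root of the rice variety Nipponbare (NB, ssp. japonica) were compared probe by probe on 8 of the 19 arrays of the series. The members were chosen by their sample titles alone: 2 NB callus arrays and 2 NB root arrays on design S1, and the same numbers on design S2. The callus was induced from the scutellum, the part of the seed embryo that faces the endosperm, and was kept for 28 days at 30 °C under 24 h of light on a solid, agarose-based callus induction medium, to which the study's methods add the synthetic auxin 2,4-D. The roots came from seedlings grown for 10 days in hydroponic culture on dilute Hyponex, a fertiliser solution, at 28 °C with 16 h of light a day. Both kinds of sample were grown in chambers, trimmed, frozen and extracted with the same RNA kit. The other 11 arrays held shoots of NB and of the indica variety IR64, both grown by the labels for 10 days in soil in a greenhouse, and NB panicles from a field, whose age the labels do not give. The study's methods give an older age for the shoot seedlings, and shoot RNA was extracted with Trizol, unlike that of the other tissues. They entered the fit, where they helped to set the spread and the filter on dim probes, and NB shoot and panicle values are given beside some probes with no test. Tissue, age, medium, temperature and light therefore cannot be told apart in any difference given here. Each array was hybridised with the same RNA in its Cy3 and Cy5 channels, so a tissue difference is always a difference between arrays. The labels number the RNA sources of each tissue 1 and 2 and use the same source names on S1 and S2, while the methods say that plants were pooled for each RNA and that each sample was hybridised more than once. The 2 arrays of a group may thus be repeats of 1 pooled RNA, and the SD and p-values below measure only the spread between arrays.

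Callus is a mass of dividing, mostly unspecialised cells that plant tissue makes at wounds or under auxin in culture. In rice it is the usual starting point for transformation and for regenerating whole plants, and it is known for the activity of cell-cycle, auxin-response and stress genes. A seedling root is a differentiated organ, with a cap, a dividing tip, hairs on its surface, an endodermis and conducting tissue. It takes up water, nitrate, iron and silicon through dedicated transporters and secretes compounds into its surroundings.

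Probes are named here as the scanner files name them. A name such as R10-00473F_C is the probe common to the transcripts of 1 full-length cDNA locus, R10-CHRv2-00473F, and a name ending in _S1 or _S2 is specific to a transcript variant of its locus. E5 probes carry the locus in a second column, E3TU probes belong to transcription units known by their 3′ ends, AK probes to single cDNA clones, and probes ending in _CDS or _END to predicted gene models. The first number of a locus name, 10 in R10-CHRv2-00473F, is the chromosome as given in the name. The names derive from TIGR Pseudomolecules Release 2, an early assembly of the Nipponbare genome. The study does not exclude cross-hybridization, so a probe may also bind transcripts of other loci than the one in its name. This was not tested here. None of the identifiers (0 found) matched the reference table of rice gene names, so no gene function is attached to a probe below. For the same reason the tissue labels could not be checked against marker genes of callus or root.

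Each value is a scaled signal: the processed signal of a spot, scaled so that the median of the 42034 non-control probes of each array and channel was 1000, held at a cap of 100000, put on the log2 scale and averaged over both channels. The array median then lies at 9.97 and the cap at 16.61. The arrays were not equally bright. The median background-subtracted signal of the 2 S1 arrays was 167.2 and 100.4 in callus, against 113.8 and 112.6 in root. On S2 it was 178.7 and 44.96 in callus, against 126.0 and 47.93 in root, so both replicate 2 arrays of S2 were dim. Over the probes tested, the SD between replicates averaged 0.52 in callus and 0.32 in root on S1, and 0.69 in callus and 0.54 in root on S2. The same difference was thus measured with a larger error on S2.

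How many probes differed between callus and root was asked first. On S1, limma called 6727 of 36868 tested probes at a Benjamini-Hochberg adjusted p below 0.05 (18.2%). Of these, 3181 were higher in callus (8.63% of tested probes) and 3546 were lower (9.62%). On S2 it called 2591 of 36117 (7.17%), 901 higher in callus (2.49%) and 1690 lower (4.68%). The probes are different on the designs and the error is larger on S2, so the counts of the designs were not set against each other. In every called probe with both replicates measured (6720 on S1 and 2579 on S2), callus minus root had the same sign in replicate 1 and in replicate 2. The calls were made from these same arrays, so this sign was largely fixed by the calling and is no separate replication.

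The largest differences were more often on the root side. At least 16-fold differences were called for 186 probes higher and 508 lower in callus on S1, and for 247 higher and 579 lower on S2. At least 64-fold differences were called for 51 higher and 115 lower on S1, and for 70 higher and 134 lower on S2. These folds are bounded by the cap above and by the floor of each array below. The lowest signal of a detected probe was 6.63 and 7.29 on the S1 callus arrays, against 7.28 and 7.21 in root. On S2 it was 6.49 and 8.39 in callus, against 7.02 and 8.26 in root. How far these bounds moved the split of the large differences was not tested. The median callus minus root difference of called probes was 1.82 for those higher and -2.19 for those lower on S1, and 3.18 and -3.38 on S2. The smallest difference that was called was 0.88 in size on S1 and 1.52 on S2. These are not limits of detection, since larger changes could be missed too. In simulated arrays, described below, 2.5% of changes of 2 and 40% of changes of 3 were recovered on S2. Over all tested probes the median difference was 0 on S1 and 0.04 on S2.

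**Figure D1:**
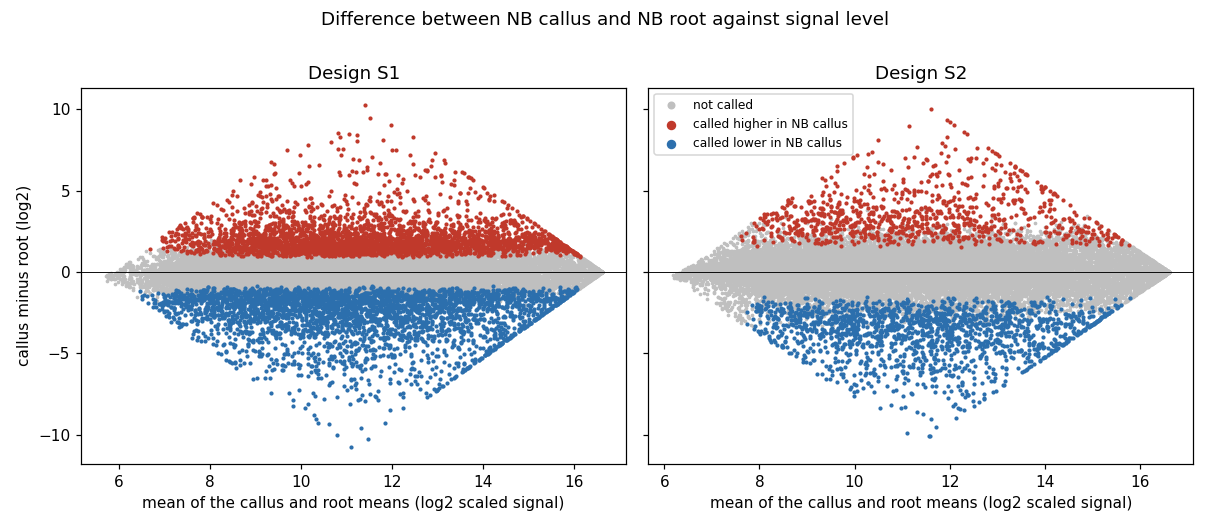
Callus minus root (log2, y axis) against the mean of the callus and root means (log2 scaled signal, x axis) for every tested probe of S1 (left) and S2 (right), with red points called higher in NB callus, blue points called lower and grey points not called. The called probes of S2 start further from 0 than those of S1, at 1.52 against 0.88 in size, and the upper and lower edges narrow to the right, where the cap of 16.61 bounds the signal.

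The split between higher and lower calls depended on single arrays and on the scan day. The replicate 2 arrays of callus and root were scanned on 1 day and their replicate 1 arrays on different days. With the scan day as a block, limma called 5758 probes higher in callus and 4194 lower on S1, and 2183 higher and 2836 lower on S2, which turned the split on S1. Within the shared scan day, where each tissue has 1 array and no test is possible, and whose arrays were part of the fit that chose the calls, 3150 of the 3180 measured higher calls and 3357 of the 3544 lower calls of S1 differed at least 2-fold in their called direction. On S2 this held for 893 of 893 higher and 1686 of 1686 lower calls. The direction within the day was thus largely fixed by how the probes were called. Leaving out callus replicate 1 gave 4616 higher and 2929 lower calls on S1, and leaving out callus replicate 2 gave 1503 higher and 3708 lower. Without root replicate 1 there were 3920 calls on S1, and without root replicate 2 there were 3622. On S2 the calls numbered 1604 without callus replicate 2, 1515 without root replicate 1 and 884 without root replicate 2. A fit of the callus and root arrays alone, with fewer arrays to estimate the spread, called 2411 probes on S1 and 0 on S2. On S2, 4972 probes then had an unadjusted p below 0.05. Unadjusted counts, here and below, are expected to include some that pass with no true difference. The main fit shares 1 spread per probe among all tissues, while the SD of callus was above that of root on both designs. Whether the shared spread suits callus was not tested, nor was the cause of the lower counts.

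The probes with the largest differences, leaving out those at the cap on both arrays of the brighter tissue, were near the background in one tissue and bright in the other. Of the 24 such probes over both designs, 10 reached the cap on at least 1 array of the brighter tissue. On S1 the largest fitted rise in callus was at E5_08840, a probe of locus R10-CHRv2-00473F. Its scaled log2 signal was 16.48 and 16.61 on the callus arrays, against 6.41 and 6.14 on the root arrays. The callus arrays were near or at the cap, while neither channel of either root array was well above background. The difference was 10.27 ± 0.415 (SE) with an adjusted p of 2.13e-06, and callus was at least 628-fold higher. Such a bound is the mean of the brighter tissue against, for each array of the dimmer one, the higher of the lowest signal among detected probes and the dim probe's own value, and it holds for the processed signals used here, not for the other background correction given below. The probe R01-00246R_C gave 15.90 and 16.61 in callus, against 6.98 and 6.56 in root, at least 515-fold higher (difference 9.49 ± 0.387 (SE), adjusted p 2.13e-06). It was also bright in the 2 panicle arrays, at 14.62 and 14.83, and was not well above background in the 2 shoot arrays.

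The other S1 probes at the top of the list had a similar pattern. That the tissues did not overlap was part of the rule that chose them. R09-00298F_C had 16.38 and 16.61 in callus, against 7.56 and 7.39 in root, a difference of 9.02, while shoot and panicle lay between 7.33 and 7.95. R03-01199F_C had 14.95 and 15.97 in callus, against 7.42 and 6.63 in root, a difference of 8.44. On both of these at least 1 root array was above background in a channel, so no bound is given. E5_08740 had 14.46 and 15.69 in callus, against 6.50 and 6.59 in root, at least 227-fold higher. R03-00116F_C had 14.52 and 15.48 in callus, against 6.90 and 6.57 in root, at least 216-fold higher. Their adjusted p-values lay between 2.05e-06 and 5.78e-06. R03-00116F_C was also measured in panicle, at 11.01 and 10.77, and was not well above background in shoot.

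**Figure D2:**
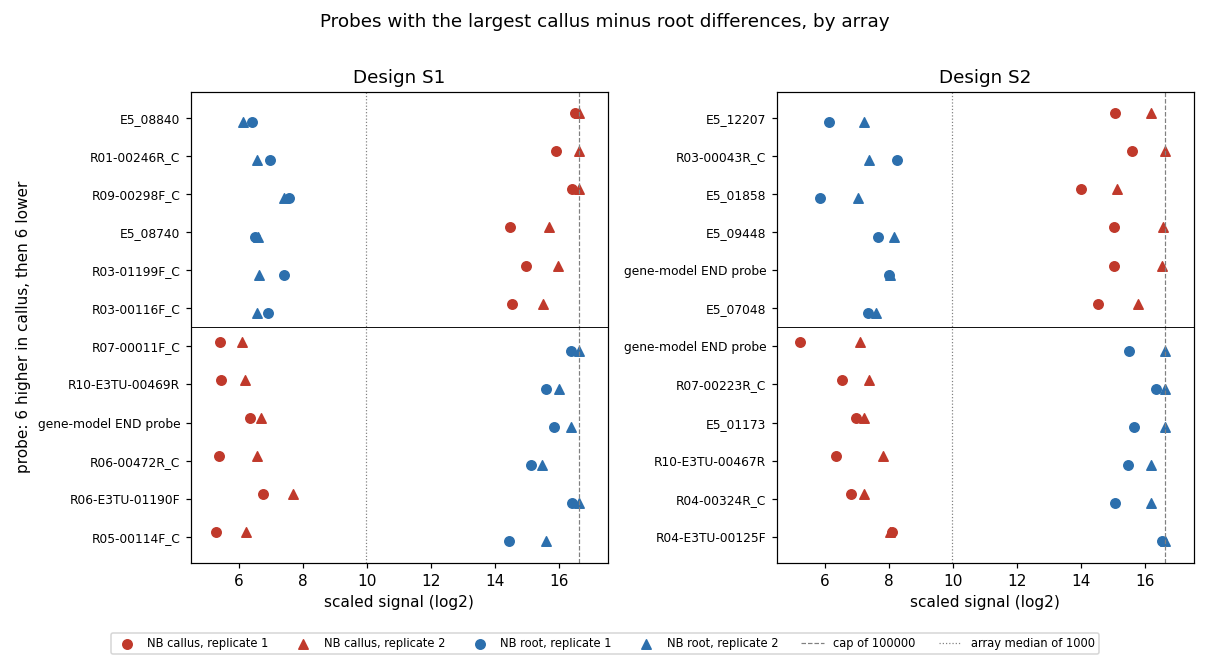
Scaled signal (log2, x axis) of the 6 probes per direction with the largest callus minus root difference on S1 (left) and S2 (right), among those not at the cap on both arrays of the brighter tissue, with each array as a point, NB callus in red and NB root in blue, circles for replicate 1 and triangles for replicate 2. In every row the 2 callus points and the 2 root points lie on opposite sides of the array median of 9.97, and the brighter tissue reaches the cap of 16.61 on at least 1 array in 10 of the 24 rows.

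On S2 the list of probes higher in callus included E5_01858, of locus R10-CHRv2-00108R, which had 13.98 and 15.11 in callus, against 5.85 and 7.04 in root. With no root channel above background, callus was at least 120-fold higher (difference 8.10 ± 0.662 (SE), adjusted p 0.000761). The shoot and panicle arrays of S2 were not well above background at this probe either, although other probes of its locus, described below, were detected in those tissues. E5_12207, of locus R11-CHRv2-00019F, gave 15.06 and 16.17 in callus, against 6.13 and 7.21 in root, at least 252-fold higher, with 11.97 on the single panicle array. R03-00043R_C gave 15.58 and 16.61 in callus, against 8.23 and 7.38 in root, a difference of 8.29. For a gene-model END probe the signals were 15.01 and 16.53 in callus, against 8.00 and 8.04 in root, a difference of 7.75. At both of these, shoot and panicle were near root, between 8.26 and 8.82. The other S2 probes of this list, E5_09448 and E5_07048, belong to loci R03-CHRv2-00116F and R05-CHRv2-00715F, the same loci that R03-00116F_C and E5_08740 represent on S1. E5_09448 had 15.03 and 16.55 in callus, against 7.66 and 8.14 in root, and E5_07048 had 14.53 and 15.76 in callus, against 7.34 and 7.60 in root.

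On the root side, R07-00011F_C on S1 had the largest fitted difference of the listed probes, though as a bound it has no rank against the others. Its signal was 5.40 and 6.09 in callus, where no channel was well above background, against 16.35 and 16.61 in root. Callus was at least 735-fold lower (difference -10.73 ± 0.392 (SE), adjusted p 2.05e-06), and the shoot and panicle arrays of S1 were not well above background. R10-E3TU-00469R, a transcription unit known by its 3′ end, had 5.43 and 6.17 in callus, against 15.57 and 15.99 in root, at least 453-fold lower in callus. It too was well above background only in root among the NB tissues on S1. On S2 a unit with a neighbouring number in its name, R10-E3TU-00467R, had 6.34 and 7.81 in callus, against 15.45 and 16.17 in root, at least 332-fold lower. It was again not well above background in the shoot and panicle arrays. These probes were thus detected in root and in no other NB tissue of their design.

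Root was not always the only other tissue with a signal. R05-00114F_C had 5.28 and 6.22 in callus, against 14.42 and 15.58 in root, at least 263-fold lower in callus, while the panicle arrays gave 12.27 and 12.04 and the shoot arrays 11.07 and 10.69. R06-00472R_C had 5.37 and 6.56 in callus, against 15.11 and 15.46 in root, at least 321-fold lower, and was not well above background in shoot or panicle. R06-E3TU-01190F had 6.75 and 7.70 in callus, against 16.38 and 16.61 in root, a difference of -9.27, with between 9.07 and 9.43 on the panicle and shoot arrays. Among the S1 probes, a gene-model END probe completed the list with 6.36 and 6.70 in callus, against 15.84 and 16.35 in root, a difference of -9.57. Each of the 12 named S1 probes kept its call under every alternative run, the scan-day block and the leaving out of each array included.

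The S2 probes lower in callus gave the same picture. A gene-model END probe had 5.22 and 7.11 in callus, against 15.50 and 16.61 in root, at least 393-fold lower in callus. R07-00223R_C had 6.54 and 7.38 in callus, against 16.33 and 16.61 in root, a difference of -9.51, and 11.33 on the panicle array. R04-00324R_C had 6.82 and 7.21 in callus, against 15.04 and 16.16 in root, a difference of -8.58, and 11.05 on the panicle array. These probes were thus higher in panicle than in callus, by a margin that was not tested. R04-E3TU-00125F had 8.09 and 8.02 in callus, against 16.50 and 16.61 in root, a difference of -8.50. E5_01173, of locus R07-CHRv2-00055F, had 6.96 and 7.23 in callus, against 15.63 and 16.61 in root, a difference of -9.02. Neither was higher than 8.41 on a shoot or panicle array. The adjusted p-values of the 12 named S2 probes lay between 0.00042 and 0.000761. In the fit of the callus and root arrays alone none of the S2 probes was called, since that fit made no call on S2.

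How large these differences are depended on the background correction. With normexp, loess and Aquantile the named S1 probes differed by 5.52 to 7.45 where higher in callus and by -7.56 to -5.58 where lower. On S2 the ranges were 4.88 to 6.03 and -7.12 to -5.55. All 24 kept their direction and their call under that processing. For E5_08840 the difference was 7.45 and for R07-00011F_C it was -7.56, below the bounds given above, so the folds depend on the background correction and their direction does not.

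The next question was whether different probes of 1 locus gave the same answer. Of 4950 loci with at least 2 tested probes over both designs, 58 had all their probes called higher in callus and 124 had all of them called lower. At least 2 probes were called in 555 loci, and in 539 of these all calls went 1 way. Probes of a locus share its transcripts and the same RNA, so they are not independent replicates of the tissue. Without root replicate 2 of S2, 86 loci had all probes called 1 way, and 119 without root replicate 1 of S2, against 182 with all arrays.

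R10-CHRv2-00473F was the most extreme locus on the callus side. All 10 of its probes, 2 on S1 and 8 on S2, were called higher in callus, with differences between 7.29 and 10.27. The callus signals lay between 16.48 and 16.61, which is at or next to the cap, against 6.14 to 9.92 in root. Without the cap the differences of the 10 probes ran from 8.35 to 10.56. In shoot the probes of this locus lay between 8.38 and 11.40 and in panicle between 7.81 and 9.83. The callus signals were thus above those of each other NB tissue at every probe.

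R03-CHRv2-00440F had 9 probes, all called higher in callus by 5.56 to 6.71. Its callus arrays were at or next to the cap, so these are minimum values. Without the cap the differences of the 9 probes ran from 6.90 to 7.64. Callus lay between 16.42 and 16.61 and root between 9.58 and 11.60, so no array of one tissue reached the other. Unlike R10-CHRv2-00473F, this locus was also bright in panicle, where its probes lay between 14.42 and 16.61, and it was low in shoot, at 6.55 to 10.72. R10-CHRv2-00108R had 10 probes, all called higher in callus by 4.46 to 8.10, with 11.53 to 15.75 in callus, against 5.85 to 11.71 in root. Its least different probe, E5_03926 on S2, had 14.95 and 15.62 in callus, against 11.71 and 9.94 in root (adjusted p 0.0109). Over its probes, shoot lay between 6.05 and 12.26 and panicle between 5.70 and 11.83, and at 4 of the 10 probes root was not well above background, so that their differences are bounded only. R05-CHRv2-00346R had 7 probes called higher by 3.82 to 7.11, with 13.96 to 16.61 in callus, against 8.33 to 11.85 in root.

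The loci behind the named probes gave the same answer wherever they had more than 1 probe. All 10 probes of R05-CHRv2-00715F were called higher in callus, by 3.20 to 8.53, and all 7 of R03-CHRv2-00116F, by 3.13 to 8.27. The other probe of R11-CHRv2-00019F was called higher too. A short list of loci with fewer probes followed. R11-CHRv2-00024F, with 2 probes, was higher in callus by 6.87 and 6.93, and R12-CHRv2-00034F, with 3 probes, by 6.28 to 7.02. These were low in root and not in the other tissues. R11-CHRv2-00024F lay between 14.16 and 15.39 in callus, against 7.62 to 8.17 in root, and between 13.35 and 14.01 in shoot and 14.02 and 14.28 in panicle. R12-CHRv2-00034F lay between 14.10 and 15.98 in callus, against 7.54 to 9.10 in root, and between 13.54 and 14.45 in shoot and 13.89 and 14.41 in panicle.

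**Figure D3:**
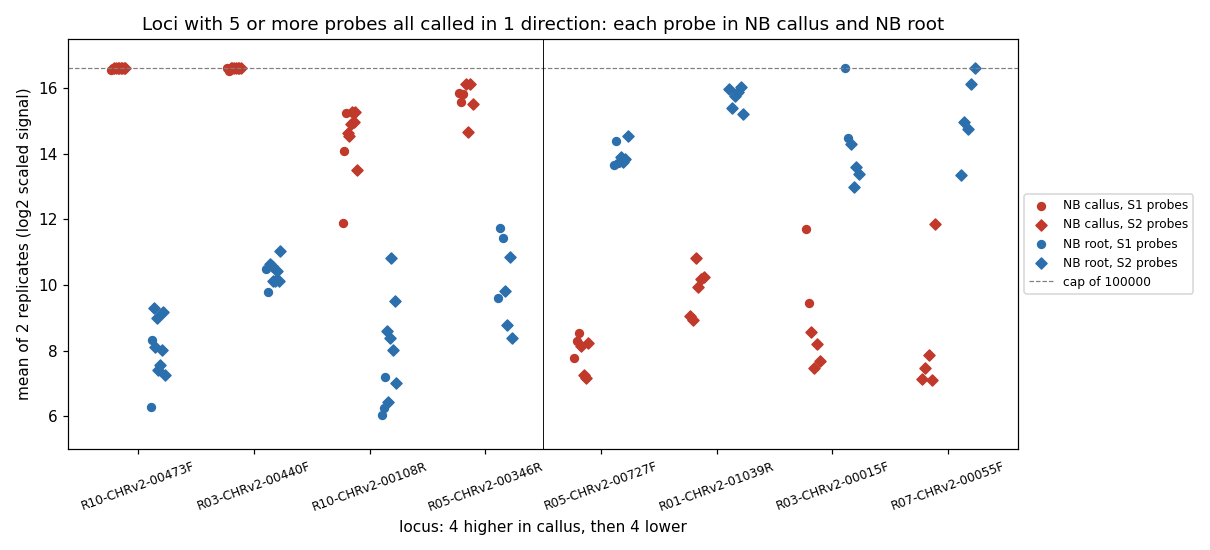
Mean of 2 replicates (log2 scaled signal, y axis) of every tested probe of the 8 loci with the most extreme differences among those with 5 or more probes, each locus with its NB callus values on the left (red) and its NB root values on the right (blue), circles for S1 and diamonds for S2. At R10-CHRv2-00473F the 10 callus values sit at or next to the cap of 16.61 over root values of at most 9.31, and at R07-CHRv2-00055F the 5 callus values lie below the root values, the highest callus probe at 11.85.

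Among loci lower in callus, R05-CHRv2-00727F had 7 probes, all called lower, with differences between -6.68 and -5.18. At 1 of them, E5_11846, callus was not well above background and was at least 78.3-fold lower. Its signals lay between 6.52 and 9.32 in callus, against 13.20 to 15.03 in root. Panicle, at 11.47 to 12.81, lay between them, and shoot, at 8.40 to 9.68, was near callus. R01-CHRv2-01039R had 6 probes on S2, all lower in callus, with differences between -6.89 and -4.94, and with 8.70 to 11.73 in callus, against 15.04 to 16.60 in root. Its shoot signals of 14.23 to 15.26 and panicle signals of 13.74 to 14.14 were close to those of root. Callus was therefore the low tissue at this locus.

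R03-CHRv2-00015F and R07-CHRv2-00055F were higher in root than in any other NB tissue at their probes, by margins that were tested for callus only. The 6 probes of R03-CHRv2-00015F were lower in callus, with differences between -5.73 and -4.90, 6.81 to 11.81 in callus, against 12.79 to 16.61 in root, and with no shoot or panicle signal above 9.06. The difference of -4.90 was at E5_12595, which was at the cap on both root arrays, so it is a minimum in size. Without the cap the differences of this locus ran from -5.73 to -5.02. The 5 probes of R07-CHRv2-00055F, all on S2, were lower, with differences between -9.02 and -4.76, 6.83 to 12.08 in callus, against 12.66 to 16.61 in root, 6.59 to 10.49 in shoot and 6.16 to 9.90 in panicle. The probe with the smallest difference, E5_12956, was at the cap on both root arrays, at 16.61 and 16.61, against 11.62 and 12.08 in callus, so that its difference is a minimum in size. Loci with 2 probes included R04-CHRv2-00592F, lower in callus, with differences of -7.57 and -5.97 and with 7.34 to 10.77 in callus, against 14.86 to 16.54 in root. R08-CHRv2-00198R was at least 64-fold lower at E5_11331, where callus was not well above background, and differed by -5.87 at R08-00198R_C. R08-CHRv2-00160F differed by -5.74 and -5.52, and R03-CHRv2-00491F by -5.28 and -5.20. Both probes of each of these were lower in callus.

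The 1028 AK probes are carried by both designs and so were measured on all 8 arrays. Of these, 7 were called higher in callus on both designs and 49 lower on both, 0 were called in opposite directions, 119 were called on S1 only and 0 on S2 only. On S2, 0.681% of AK probes were called higher and 4.77% lower, against 2.49% and 4.68% of all tested probes. On S1 the shares were 5.64% and 11.4%, against 8.63% and 9.62%. AK probes were bright, with 360 of them at the cap on at least 1 of the 4 S1 callus and root arrays. The cap cuts differences short, and a probe capped in both tissues has a difference of 0. All 119 of those called on S1 only had the same sign on S2, as did 876 of all 1028 AK probes, called or not. Across the 1028 probes, which are not independent replicates, the S1 and S2 differences correlated at r 0.976, and their median absolute difference was 0.147. Since the source names are the same on both designs, this is repeated hybridization as far as the labels tell. The 56 probes called on both designs were 24 without root replicate 2 of S2 and 33 without root replicate 1 of S2.

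**Figure D4:**
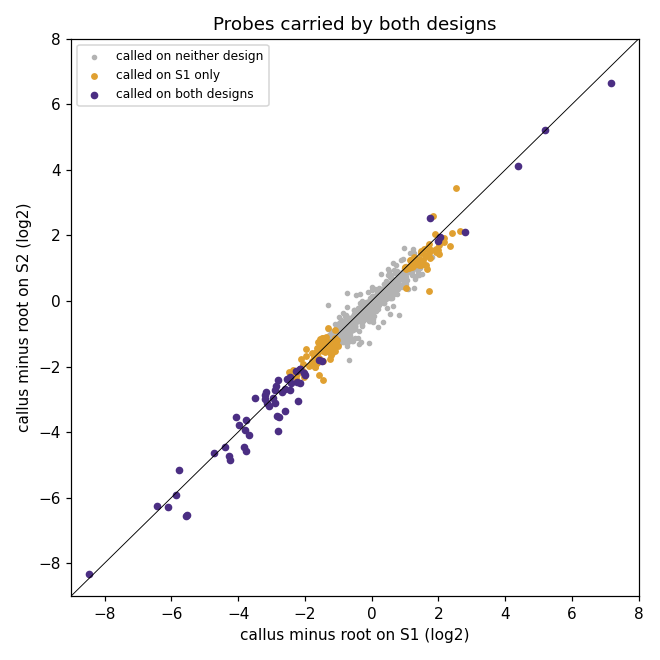
Callus minus root on S1 (log2, x axis) against the same on S2 (log2, y axis) for the 1028 probes on both designs, with purple points called on both designs, orange points called on S1 only and grey points called on neither. The points follow the line of equal differences (r 0.976 across probes), and the 49 purple points at the lower left outnumber the 7 at the upper right. On S1, 360 of the probes were at the cap on at least 1 of the 4 callus and root arrays, which bounds their differences.

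AK109434 led the probes that were higher in callus on both designs. It gave 13.06 and 14.09 in callus, against 6.17 and 6.63 in root on S1, and 13.18 and 14.66 in callus, against 6.95 and 7.58 in root on S2. The difference was 7.17 on S1 and 6.65 on S2 (adjusted p 8.4e-06 and 0.00139). Shoot and panicle were higher still, at 15.48 to 16.37 over both designs, so root was the tissue apart. AK060726 was at the cap of 16.61 on all 4 callus arrays, against 11.51 and 11.30 in root on S1 and 11.43 and 11.35 in root on S2. AK058313 was likewise at the cap in callus, against 12.15 and 12.31 in root on S1 and 12.09 and 12.87 on S2. Since the cap bounds the brighter side, the differences of 5.20 and 5.22 at AK060726 and of 4.38 and 4.13 at AK058313 are minimum values. AK109279, with 15.86 and 16.43 in callus, against 13.47 and 13.22 in root on S1, and 15.92 and 16.19 in callus, against 14.07 and 13.85 in root on S2, differed by 2.80 on S1. Its S2 call was lost without callus replicate 2 (adjusted p 0.0731), root replicate 1 (0.076) or root replicate 2 (0.136).

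The AK probes that fell most in callus were at the cap in shoot and panicle. AK061619 gave 7.39 and 8.08 in callus, against 16.06 and 16.34 in root on S1, and 7.74 and 8.27 in callus, against 16.08 and 16.59 in root on S2. The difference was -8.47 on S1 and -8.32 on S2 (adjusted p 2.05e-06 and 0.00042). AK060904 differed by -6.44 and -6.25, AK058875 by -6.11 and -6.28 and AK061654 by -5.85 and -5.91. With normexp, loess and Aquantile the difference at AK109434 was 4.10 on S1 and 3.93 on S2, that at AK058875 was -3.76 and -3.71, and that at AK058313 was 6.74 and 6.82. For all 4 probes that fell, the shoot and panicle arrays of both designs lay at 16.61, the cap. Callus was thus the lowest of the NB tissues measured, and root was below the cap on at least 1 array of each design. At AK058875 and AK061654 root lay between callus and the capped tissues. AK058875 gave 7.08 and 7.49 in callus, against 13.20 and 13.59 in root on S1, and AK061654 gave 7.39 and 8.74 in callus, against 13.75 and 14.07 in root.

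Some called probes were well above background in 1 of the tissues only. On S1, 130 probes called higher were detected on both callus arrays in both channels and in no channel of a root array, and 190 probes called lower were detected in root only in the same sense. On S2 there were 84 probes of callus only and 110 of root only. Over all tested probes, called or not, 183 were of callus only and 218 of root only on S1, while S2 had the opposite order, with 264 of callus only and 196 of root only. These counts moved with the dim arrays of S2: the callus-only count was 33 without callus replicate 2, 31 without root replicate 1 and 45 without root replicate 2, and the root-only count was 64 without callus replicate 1 and 45 without root replicate 2. For such probes fewer transcripts and a weaker hybridization cannot be told apart from none.

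The share of probes called differed between kinds of probe. On S1, 26.3% of the common probes of cDNA loci were called, 22.4% of the E5 probes, 23.6% of the 3′ end units and 11.3% of the variant probes, against 12.9% of the gene-model END probes and 8.36% of the CDS probes. On S2 the shares were 10.3%, 10.2%, 9.72% and 3.43% in the same cDNA classes, against 4.30% and 2.56% in the gene-model classes. Variant probes thus lay below the END probes on both designs, unlike the other cDNA classes. The background over all tested probes was 18.2% on S1 and 7.17% on S2. Signal level moved with the class. In the lowest quintile of tested probes by level on S1, 17.4% of cDNA-locus probes were called, against 5.73% of gene-model probes, and in the middle quintile 24.0% against 11.7%. In the highest quintile the order turned on S1, with 25.7% of cDNA-locus probes, against 30.7% of gene-model probes (21.9% of the tested gene-model probes were called higher and 8.81% lower). On S2 the highest quintile had 9.71% of cDNA-locus probes called, against 5.58% of gene-model probes. The difference between classes was not tested.

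**Figure D5:**
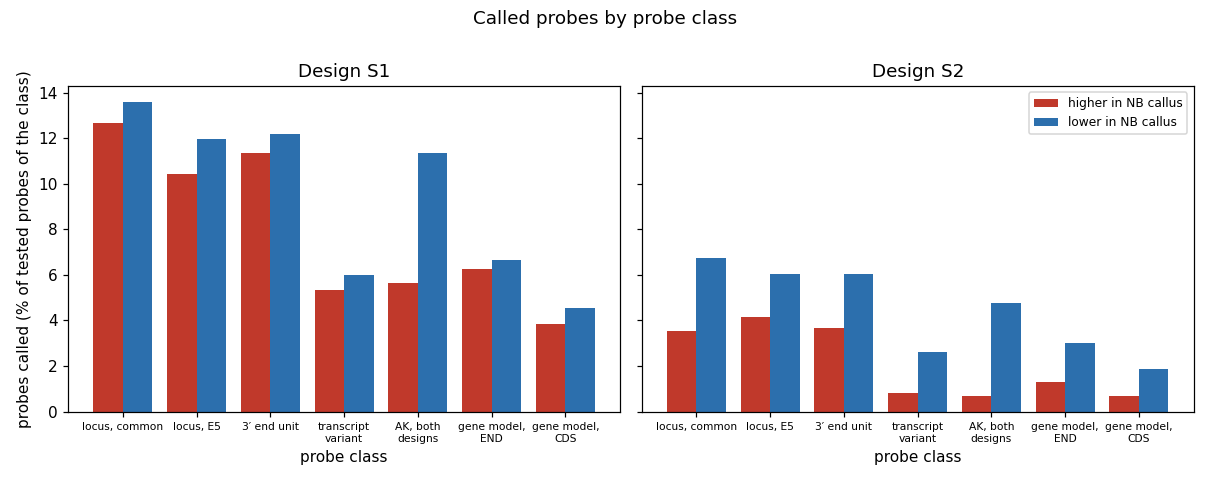
Share of tested probes called (%, y axis) by probe class (x axis), higher in NB callus in red and lower in NB callus in blue, on S1 (left) and S2 (right). On S1 the bars of the common locus probes reach 12.7% and 13.6%, against 3.83% and 4.53% for the CDS probes of gene models, and in every class of both designs the blue bar is the taller one.

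By the chromosome in the name, calls were spread over all 12 chromosomes. On S1 the share of cDNA probes higher in callus ran from 10.1% on chromosome 2 to 12.6% on chromosome 6, and the share lower from 9.96% on chromosome 11 to 13.9% on chromosome 1. On S2 the shares ran from 2.46% (chromosome 2) to 4.83% (chromosome 5) higher and from 4.56% (chromosome 9) to 7.44% (chromosome 1) lower. These ranges were not tested.

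A last question was whether transcript variants of a locus changed in step with the rest of the locus. For this, the log2 difference between a variant probe and the common probe of its locus was taken within each array and then compared between callus and root. On S1, 36 of 940 pairs were called (3.83%), 15 with the variant up in callus relative to the common probe and 21 with it down. On S2, 2 of 830 pairs were called (0.241%), while 88 had an unadjusted p below 0.05, which some pairs reach with no true difference. The S1 count was 22 without callus replicate 2, 6 without root replicate 1 and 11 without root replicate 2, and no S2 pair was called when callus replicate 1 or either root array was left out. Probes of a locus differ in their affinity, so a pair shows unequal change and not which transcript changed.

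R09-00171R_S1 rose in callus while the common probe of its locus stayed within its spread. The variant probe gave 11.85 and 13.31 in callus, against 6.99 and 6.92 in root, and the common probe R09-00171R_C gave 12.29 and 11.43 in callus, against 12.20 and 11.34 in root. The variant thus moved by 5.54 ± 0.674 (SE) relative to the common probe (adjusted p 0.00259). In root the variant was well above background in only 1 channel of each array, so the size rests on values near the background. At locus R03-CHRv2-00103F it was the common probe that fell. R03-00103F_C had 7.02 and 7.66 in callus, against 12.59 and 13.37 in root, while the variant R03-00103F_S1 had 10.76 and 10.24 in callus, against 10.78 and 10.82 in root, a relative move of 5.35 ± 0.457 (SE, adjusted p 0.000808). In callus the common probe was well above background in only 1 channel of each array, so this size has the same limit. R12-00506F_S1 had 14.31 and 14.76 in callus, against 11.83 and 11.06 in root, with 9.60 and 9.96 in callus, against 10.46 and 10.75 in root at the common probe, a relative move of 3.91.

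The opposite was seen at R02-CHRv2-00942R. Its common probe R02-00942R_C was at the cap in callus, at 16.61 and 16.61, against 10.54 and 10.55 in root, whereas the variant R02-00942R_S1 had 8.35 and 8.69 in callus, against 7.45 and 6.60 in root. The fitted relative move was -4.58 (adjusted p 0.000887), but its size is not settled, since the common probe was capped in callus and the variant was well above background in root in a channel of only 1 array. R01-00450R_S1 moved by -3.27 and R12-00142F_S1 by -2.84 relative to their common probes. Both of these calls were lost without callus replicate 2 and without root replicate 1, and that of R12-00142F_S1 also without root replicate 2. On S2 the called pairs were R03-01037F_S1, at -4.54 ± 0.535 (SE), and R04-00910R_S1, at -3.15 ± 0.392 (SE), each with an adjusted p of 0.0382. R03-01037F_S1 had 10.95 and 12.75 in callus, against 14.55 and 15.79 in root, while R03-01037F_C had 16.20 and 16.61 in callus, against 14.69 and 15.69 in root. With normexp, loess and Aquantile the relative move of R04-00910R_S1 shrank to -1.06 and was not called, and that of R01-00450R_S1 shrank to -1.87 and was not called. That of R09-00171R_S1 was then 3.02 and that of R03-00103F_S1 3.18.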

How the data were processed

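Per the labels and file headers, the authors hybridised RNA of 1 sample in both dyes on Agilent arrays of designs S1 and S2 and ran Feature Extraction 8.1.1.1 (7.5 in the submitters' processing notes). The deposited processed signal intensity is background-subtracted and dye-normalized within the array. In the deposited files a spot was well above background at p 0.01 and above 2.6 standard deviations of the background.

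The 1942 positive and 314 negative control spots and spots flagged as outliers in either channel were left out; saturated spots were kept. Signals were scaled and capped as in the study's methods. Probes detected (well above background) in both channels on each array of at least 1 of the 5 groups of the design were tested. Differences of callus minus root came from lmFit and eBayes of limma 3.58.1 (R 4.3.3), two-sided, over all 10 S1 or 9 S2 arrays, with Benjamini-Hochberg adjustment within a design and calls at adjusted p below 0.05. Variant and common probes were tested alike on their within-array difference. Tables were made with Python 3.11.15, numpy 2.4.6, pandas 2.3.3 and matplotlib 3.10.9.

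Named probes were, per design and direction, the 6 with the largest difference among called probes without overlap, not saturated and not at the cap on every array of the brighter tissue, 1 per locus; per direction, the 4 loci with all probes called 1 way whose smallest difference was largest, and the 4 AK probes called on both designs whose smaller difference was largest; and, per design and direction, up to 3 called variant pairs with the largest relative difference. Loci with at least 5 probes were added after their values were seen. The members, lists and rules were chosen with earlier results of these data known. Lists of tissue marker genes could not be used, since 0 identifiers matched gene names, and probe sequences were not used here. Precision is limited by the number of arrays.

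The fit was tested on simulated arrays. On S1 (36735 probes) it recovered 2.5% of changes of 1, 61.25% of changes of 2 and 97.5% of changes of 3 on the log2 scale. On S2 (35771 probes) it recovered 0%, 2.5% and 40%. On each design 80 probes were given a change of 1, 80 a change of 2 and 40 a change of 3. These are far fewer than the 6727 probes called on S1 and the 2591 called on S2. The share recovered with as many changed probes as that was not tested. The simulated noise was independent between arrays, had the same spread in all tissues and was not capped. The real arrays differed in each of these, so the shares need not hold for them. Alternatives covered the arrays in the fit, replicate and scan-day blocks, scaling, background correction, filter, cap, channel, threshold and leaving out each array.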

Additional observations from a re-analysis of the deposited data

How the results depend on the processing

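All 40 named probe values and all 8 named pairs kept their direction under each alternative. The share of calls higher in callus was 47.3% on S1 and crossed 50% with normexp, loess and Aquantile (52.6%), quantile normalization (50.6%), the replicate block (50.7%), the replicate block with quantile normalization (53.2%) and the scan-day block (57.9%); leaving out 1 array gave 28.8% to 61.2%. It was 48.9% with 75th percentile scaling, 49.1% without the cap and 32.0% with the callus and root arrays alone. On S2, with 34.8%, it was 39.2% with 75th percentile scaling, 39.4% with quantile normalization, 44.5% with normexp, loess and Aquantile, 43.5% with the scan-day block, 48.8% with the replicate block, 50.6% with the block and quantile normalization, and 22.0% to 48.8% with 1 array left out. The cause was not tested.

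S1 calls were 10701 with the replicate block and quantile normalization, 2411 with callus and root arrays alone, 3763 at adjusted p below 0.01 and 3622 to 7545 with 1 array left out. S2 calls were 8246 with the replicate block, 8676 with the block and quantile normalization, 5019 with the scan-day block, 4313 with normexp, loess and Aquantile, 1105 at adjusted p below 0.01, 0 with callus and root arrays alone (4972 at an unadjusted p below 0.05) and 884 to 1987 with 1 array left out. With the replicate block S1 gave 9967. Same-numbered callus and root arrays deviated together, with correlations of 0.62 on S1 and 0.83 on S2, but 2 numbers cannot show a pairing. The labels do not say what the numbers share, although the replicate 2 arrays of both tissues were scanned on 1 day.

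Callus-only probes of S1 numbered 67 with callus and root arrays alone and 92 to 143 with 1 array left out; root-only probes numbered 114 with normexp, loess and Aquantile and 135 to 195 with 1 array left out. On S2 the callus-only count was 127 with 75th percentile scaling, 223 and 189 with the replicate block without and with quantile normalization, 168 with the scan-day block, 32 at adjusted p below 0.01, 0 with callus and root arrays alone and 31 to 83 with 1 array left out. The root-only count was 193, 191, 180, 57 and 0 in the block, block with quantile, scan-day, stricter and callus-and-root settings, and 45 to 122 with 1 array left out. Loci called 1 way on all probes numbered 512 and 550 with the replicate block without and with quantile normalization, 380 with the scan-day block, 10 with callus and root arrays alone and 86 to 185 with 1 array left out. AK probes called on both designs numbered 112 with 75th percentile scaling, 106 with quantile normalization, 199 and 294 with the replicate block without and with quantile normalization, 90 with the scan-day block, 238 with normexp, loess and Aquantile, 0 with callus and root arrays alone and 24 to 56 with 1 array left out. Variant pairs called numbered, on S1 and S2, 123 and 113 with the replicate block, 100 and 30 with normexp, loess and Aquantile, 0 and 0 with callus and root arrays alone (123 and 63 at an unadjusted p below 0.05) and 6 to 49 and 0 to 2 with 1 array left out; Cy3 alone gave 0 on S2 (82 unadjusted).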

Other observations

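Loci with consecutive numbers in their names were sometimes called in the same direction, a pattern picked out after the values were seen. Of 19975 cDNA loci with a tested probe, 1895 (9.49%) had calls only higher in callus and 2269 (11.4%) only lower. Among them were 4 runs of at least 4 consecutive numbers on the same strand letter that were higher and 7 that were lower. The files do not say that the numbers follow the order of the loci along a chromosome.

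The longest run was R10-CHRv2-00259R to R10-CHRv2-00264R, 6 loci with calls higher in callus, although only 8 of their 15 tested probes were called. At R10-00261R_C the signal was 14.78 and 15.93 in callus, against 9.86 and 9.19 in root, a difference of 5.83 (adjusted p 0.000838). Other probes of the same locus did not differ in this way, such as E5_00595 with 12.31 and 11.32 in callus, against 12.61 and 11.66 in root. On the root side, R08-CHRv2-00159F to R08-CHRv2-00163F were 5 loci with 10 of 12 tested probes called lower. R08-00163F_C gave 7.33 and 7.05 in callus, against 13.63 and 14.73 in root, a difference of -6.99, and R08-00162F_C gave 8.21 and 8.98 in callus, against 14.06 and 14.89 in root, a difference of -5.88. All 6 tested probes of the 5 loci R05-CHRv2-00085F to R05-CHRv2-00089F were called lower, and all 6 of the 4 loci R12-CHRv2-00032F to R12-CHRv2-00035F higher.

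In 16 of the loci with at least 2 tested probes, calls went in both directions. One was R11-CHRv2-00530R, with 8 probes, 1 called higher and 4 lower. Its common probe R11-00530R_C had 5.20 and 7.05 in callus, against 11.10 and 11.14 in root (adjusted p 0.00543), and since it was not well above background in callus it is bounded as at least 12.9-fold lower there, whereas E5_03411 had 16.45 and 16.48 in callus, against 15.08 and 14.41 in root (adjusted p 0.0414). At R01-CHRv2-01188R, with 8 probes, only 2 were called. E5_05415 gave 11.55 and 12.07 in callus, against 16.09 and 15.30 in root, a difference of -3.88, while E5_12022 gave 11.79 and 12.51 in callus, against 10.69 and 11.05 in root, a difference of 1.28.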
